A study of Mus musculus with 9 samples.

Results

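Open chromatin around 9 genes of the GM-CSF receptor and STAT5 pathway was followed in 4 ATAC-seq peak lists from mouse dendritic cells. The genes were the receptor chains Csf2ra and Csf2rb, the kinase Jak2, the transcription factors Stat5a and Stat5b, and the inhibitors Cish, Socs1, Socs2 and Socs3. Every deposited peak in the mm10 RefSeq span of a gene, or within 20 kb of it, was taken, and touching peaks of the lists were merged into regions. The 9 genes, of 21887 protein-coding genes, held 158 regions of the 155220 that lay as near to any protein-coding gene, and of 194735 merged regions in all.

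The cells were primary bone marrow dendritic cells of C57Bl/6 mice, cultured for 9 days in 20 ng/mL GM-CSF. All of them received retrovirus on day 2 and were sorted for the human CD8 reporter and for CD11c, a surface marker of dendritic cells. HP109 is the hairpin vector that knocks Pcgf6 down, and LMP8 is its control vector. OE is the vector that overexpresses Pcgf6, and mi8 is its control vector. Each vector had 2 libraries, and 1 input library, labelled mi8, served as background for every list. One list per vector was deposited for both of its libraries together, so no value has a replicate spread, no test between vectors was possible, and intervals given here cover counting error only.

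GM-CSF binds a receptor made of a specific alpha chain (Csf2ra) and a signalling beta chain (Csf2rb), which activates the kinase Jak2. Jak2 phosphorylates the STAT5 proteins, which enter the nucleus and bind DNA at the palindrome TTCNNNGAA. Cish and the Socs genes are induced by this signal and act back on the receptor or the kinase as inhibitors. The cells studied here grew in the same cytokine throughout, so every list shows these genes under GM-CSF.

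HP109 had 170103 peaks on its list against 140735 on that of LMP8, and OE had 111510 against 170976 on that of mi8. The whole number of reads stacked at each summit was solved from the deposited fold and p-value. For 100% of peaks, the solved number gave back the deposited −log10 p-value within 0.001. The input scaling gave a depth ratio of 0.992 for HP109 over LMP8, 0.998 for OE over mi8 and 1.37 for mi8 over LMP8. Summit reads are therefore compared within OE against mi8 and within HP109 against LMP8, and not across these pairs. Of 6 dendritic cell markers, 6 had a peak within 1 kb of a gene end in HP109, 6 in LMP8, 5 in OE and 6 in mi8, beside 64.3%, 62.4%, 58.2% and 64.8% of all genes in the same order; the gene without one in OE was Ciita. Macrophage markers had such a peak at 5 of 5 genes in every list, and granulocyte markers at 3 of 5 in HP109, 2 in LMP8, 1 in OE and 2 in mi8. B cell markers had one at 2 of 3 genes in HP109, 2 in LMP8, 1 in OE and 2 in mi8. T cell markers had one at 2 of 3 in HP109 and at 1 in each of LMP8, OE and mi8. Erythroid markers had one at 3 of 3 in HP109, LMP8 and mi8 and at 2 in OE. Stroma markers had one at 2 of 3 in HP109 and mi8 and at 1 in LMP8 and OE. Markers of other cell types thus had such peaks too. Those without one in any list were Mpo and Ly6g (granulocytes), Pax5 (B cells), Cd3e (T cells) and Col1a2 (stroma). At Pcgf6 itself, peaks stood at both gene ends in every list, which says nothing about its expression.

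The promoters of Cish and Socs3 are shown because they were the only ones, of the 9 promoters that the RefSeq table gives for 7 of the genes, with a match to the STAT palindrome. Each window runs from 250 bases before to 50 after an annotated transcript start (GRCm38.p6, the assembly of mm10), is written 5′ to 3′ on the gene's strand, and has TTCNNNGAA in capitals. Cish lies on the plus strand (chr9:107296409-107296708) and Socs3 on the minus strand (chr11:117969317-117969616).
Cish promoter: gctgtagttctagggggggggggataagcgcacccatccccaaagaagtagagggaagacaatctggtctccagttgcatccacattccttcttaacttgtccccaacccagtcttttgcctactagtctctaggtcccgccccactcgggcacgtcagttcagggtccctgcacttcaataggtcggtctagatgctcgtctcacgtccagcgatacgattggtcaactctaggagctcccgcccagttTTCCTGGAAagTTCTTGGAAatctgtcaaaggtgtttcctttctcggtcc
Socs3 promoter: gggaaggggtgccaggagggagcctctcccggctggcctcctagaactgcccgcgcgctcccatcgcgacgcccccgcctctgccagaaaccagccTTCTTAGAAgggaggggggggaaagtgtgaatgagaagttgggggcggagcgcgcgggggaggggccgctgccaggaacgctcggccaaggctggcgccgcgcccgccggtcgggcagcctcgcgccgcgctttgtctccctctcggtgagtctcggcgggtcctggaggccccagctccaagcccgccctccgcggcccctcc
In Cish the matches TTCCTGGAA and TTCTTGGAA begin at positions 0 and 11 counted from the annotated start, and in Socs3 the match TTCTTAGAA begins at position -154. The palindrome occurred in 7.69% of all 21263 promoter windows, and 0.404% held at least 2 matches, as the Cish window does. Searched on both strands, none of the 9 windows held CACGTG (E-box, 7.84% of all windows), GCGGGAA (E2F, 5.95%) or GAGGAAGT (PU.1, 3.13%). The STAT palindrome reads the same on both strands. These matches describe letters in a window and not a measured binding site.

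All 9 promoter windows, given for 7 of the genes, overlapped a peak in all 4 lists. The share over all windows was 57% in HP109, 56.2% in LMP8, 52.5% in OE and 57.8% in mi8. The genes were densely covered: they had a median of 19 regions (10 to 29), against a median of 9 and a 90th percentile of 23 over all protein-coding genes. By list, the 9 genes together had 130 regions in HP109, 116 in LMP8, 107 in OE and 130 in mi8. Of the 158 regions, 89 were present in all 4 lists (56.3%, exact Clopper-Pearson 95% interval 48.2 to 64.2%), beside 47.6% of the regions near all genes.

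**Figure D1:**
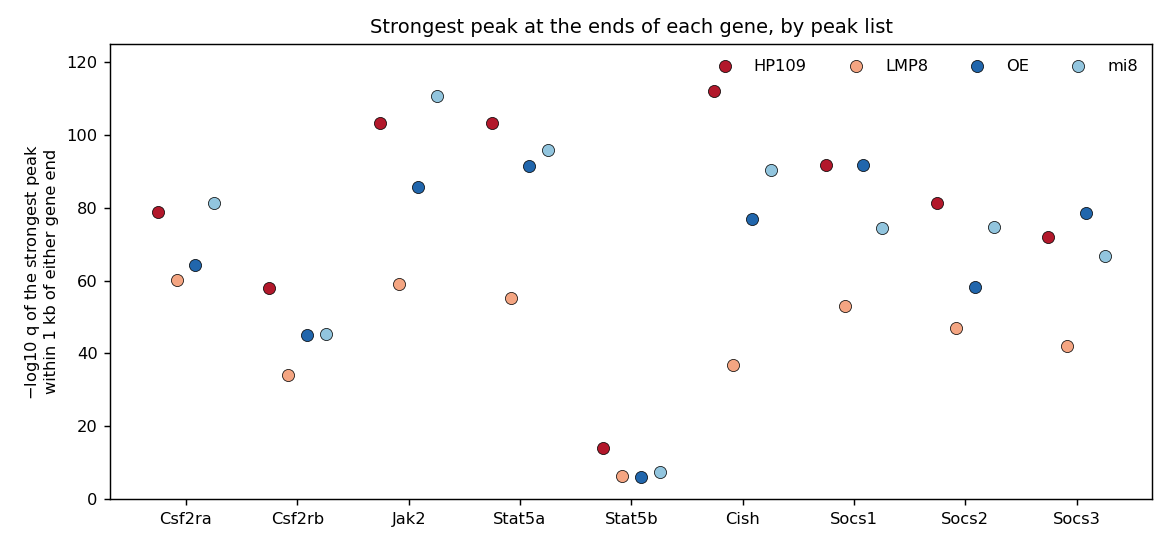
The −log10 q of the strongest peak within 1 kb of either end of each gene (vertical axis) is drawn for the 9 genes, with 1 point for each of the lists HP109, LMP8, OE and mi8. LMP8 is the lowest of the 4 points at 8 of the 9 genes, all but Stat5b, from 34.1 at Csf2rb to 60.0 at Csf2ra. At Stat5b all points are low (6.15 to 13.9), and its annotated promoters lie inside its span.

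Csf2ra encodes the alpha chain, which gives the receptor its specificity for GM-CSF. Its start on chromosome 19 lay in a region of 3170 bases (61225664 to 61228833) present in every list, whose strongest summit stood inside the gene at 61227259 in HP109, 61227405 in LMP8, 61227238 in OE and 61227205 in mi8. The −log10 q there, which like the fold is the authors' own value and ranks peaks within a list, was 78.8 in HP109, 60.0 in LMP8, 64.2 in OE and 81.4 in mi8. That summit held 80 reads in HP109 against 55 in LMP8, and 77 in OE against 80 in mi8. This region was thus the strongest of the gene in LMP8, OE and mi8, through a summit that is not at the annotated start. Over the annotated promoter window OE had a separate and weaker peak (61227965 to 61228618, −log10 q 20.9, 33 reads), while in HP109, LMP8 and mi8 1 broad peak covered the window and reached beyond it.

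In HP109 the strongest region of Csf2ra stood 16.1 kb upstream (61244600 to 61245144), with −log10 q 107 in HP109, 48.4 in LMP8, 59.5 in OE and 80.4 in mi8. It held 84 summit reads in HP109 against 48 in LMP8, a ratio of 1.75 (95% interval 1.21 to 2.55). In the other pair it held 60 reads in OE against 75 in mi8, a ratio of 0.8 (0.560 to 1.14). The distal region therefore had more reads in HP109 than in LMP8 and fewer in OE than in mi8. The second interval includes equality. Over the shared regions near all genes the median ratios were 1.39 and 0.793, in the same order. A further upstream region (61230628 to 61230776) had −log10 q 8.56 in HP109, 10.2 in LMP8 and 17.6 in mi8 and no peak in OE. Csf2ra had 7 regions in HP109, 6 in LMP8, 5 in OE and 9 in mi8, the lowest count of the 9 genes in every list.

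Csf2rb encodes the beta chain shared with the receptors for IL-3 and IL-5. Its region at the lower coordinate of the gene span on chromosome 15 (78325578 to 78326477) had −log10 q 57.9 in HP109, 34.1 in LMP8, 44.9 in OE and 45.3 in mi8. The summit held 61 reads in HP109 against 43 in LMP8, and 53 in OE against 61 in mi8. OE and mi8 were thus close at this end of the gene (ratio 0.869, 95% interval 0.590 to 1.28). Inside the gene they were further apart. The region 78330697 to 78331076 held 21 reads in OE against 41 in mi8, a ratio of 0.512 (0.288 to 0.887), and 31 in HP109 against 29 in LMP8. Its neighbour 78330025 to 78330321 held 21 reads in OE against 39 in mi8 and 33 in HP109 against 22 in LMP8. In LMP8 and mi8 the strongest region of Csf2rb lay 4.09 kb past its upper coordinate (78355090 to 78355913), with −log10 q 41.8 and 46.0. It held 34 reads in OE against 49 in mi8, and 48 in HP109 against 42 in LMP8. All 11 regions that OE shared with mi8 at Csf2rb had fewer summit reads in OE, as did 77.5% of the shared regions near all genes.

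Csf2rb was also the gene with the smallest share of regions in all 4 lists, 11 of 29 (37.9%). Much of this came from OE, where 8 regions had no counterpart in any other list. One lay inside the gene (78326576 to 78326719, −log10 q 3.85), and the other 7 lay beyond its upper coordinate, between 78353704 and 78366430. They were weak: their −log10 q ran from 2.14 to 5.42 and their summits held 9 to 15 reads. Only 21 of 21887 protein-coding genes (0.0959%) had as many OE-alone regions; Csf2rb was singled out for them after its values were seen. In the opposite direction, 2 regions before the gene, 78321855 to 78322059 (−log10 q 19.7 in HP109, 8.68 in LMP8 and 16.3 in mi8) and 78323830 to 78324019 (17.7, 10.3 and 13.3 in the same lists), had no peak in OE. OE therefore both lacked peaks before Csf2rb and had weak extra ones after it. The closely similar paralog Csf2rb2 lies beside Csf2rb, and how reads that fit both genes were placed is not given in the sources used here. Csf2rb2 had 8 regions in OE against 18 in mi8, and none of them in OE alone.

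The 5 genes with region counts most like those of Csf2rb over the 4 lists were Brd2, Prune1, Kdm2a, Rhog and BC035044. Their summed differences in region count were 4 for Brd2 and Prune1 and 5 for the others. Brd2 had 19 regions in HP109, 17 in LMP8, 23 in OE and 18 in mi8, beside 19, 17, 20 and 17 at Csf2rb in the same order. No gene had the same 4 counts.

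**Figure D2:**
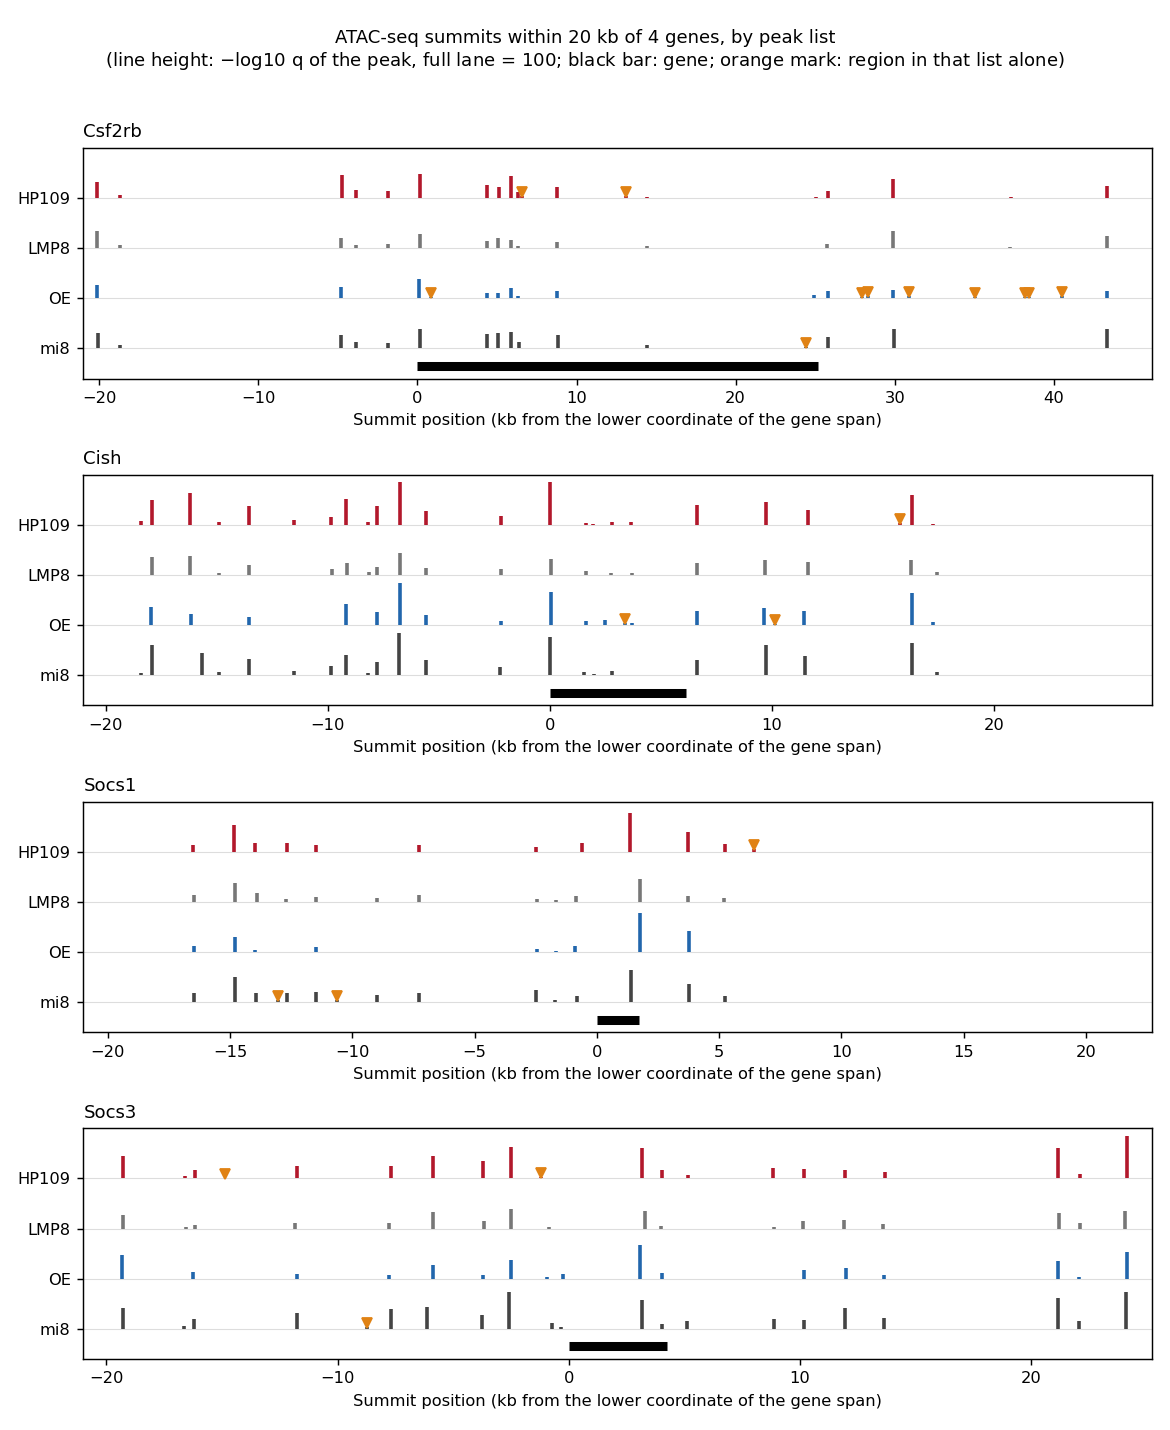
Summits near Csf2rb, Cish, Socs1 and Socs3 are placed by their distance in kb from the lower coordinate of the gene span (horizontal axis), in 1 lane for each list. Line height is −log10 q (a full lane is 100), the black bar is the gene, and orange marks show regions present in that list alone; 7 of the 8 OE-alone marks at Csf2rb fall beyond the upper end of the gene.

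Jak2 encodes the kinase that sits on the beta chain. Its start on chromosome 19 (29250961 to 29252220) was its strongest region in every list, with −log10 q 103 in HP109, 58.9 in LMP8, 85.6 in OE and 111 in mi8. The summit held 78 reads in HP109 against 53 in LMP8, and 83 in OE against 91 in mi8. OE was thus slightly below mi8 at the start, with a ratio of 0.912 (95% interval 0.669 to 1.24). Upstream of the gene OE stood further below mi8. At 29239433 to 29239926, 11.9 kb upstream, 42 reads were in OE against 71 in mi8 (0.592, 0.394 to 0.878), and 60 in HP109 against 41 in LMP8. At 29241449 to 29242015, 9.79 kb upstream, 59 reads were in OE against 86 in mi8, and 77 in HP109 against 52 in LMP8. Both upstream regions overlap the long noncoding RNA gene Gm41829, so they cannot be given to Jak2 alone.

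The largest ratio of HP109 over LMP8 at any of the 9 genes was 3.04 kb upstream of Jak2 (29247993 to 29248767). It held 36 reads in HP109 against 14 in LMP8, a ratio of 2.57 (1.35 to 5.16), and 23 in OE against 32 in mi8. All 13 regions of Jak2 shared by HP109 and LMP8 had more summit reads in HP109, and 11 of 12 shared by OE and mi8 had fewer in OE. Over all genes these shares were 85.1% and 77.5%. An intronic or exonic place inside the span could not be given, since no exon annotation was used here; 1 region inside the span (29261682 to 29261940) had −log10 q 12.7 in HP109, 4.91 in LMP8 and 3.17 in mi8 and no peak in OE.

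Stat5a and Stat5b are neighbouring genes on chromosome 11 that encode the highly similar STAT5 proteins, and 10 of their regions belong to the windows of both. The main Stat5a start (100860076 to 100860838) had −log10 q 103 in HP109, 55.3 in LMP8, 91.4 in OE and 95.8 in mi8. Its summit held 87 reads in HP109 against 56 in LMP8, and 87 in OE against 90 in mi8. The promoter window of an earlier annotated Stat5a start overlapped the region 100858987 to 100859588, which ended before that start at 100859656. This region was much weaker, with 20 reads in HP109 against 13 in LMP8 and 15 in OE against 16 in mi8. Its OE and mi8 summits lay 214 bases apart. OE and mi8 thus nearly matched at the main Stat5a start and, at separate summits, in this region.

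The Stat5b starts inside its span differed more between OE and mi8. At the start in 100850090 to 100850795 the summit held 32 reads in HP109 against 29 in LMP8, and 24 in OE against 39 in mi8 (0.615, 0.354 to 1.05). At the start in 100822361 to 100822745 it held 55 reads in HP109 against 34 in LMP8, and 38 in OE against 50 in mi8 (0.760, 0.485 to 1.18). Both of these Stat5b starts were therefore below mi8 in OE, by more than the main Stat5a start (0.967, 0.712 to 1.31). Each of these intervals includes equality, and they overlap. At the first of the Stat5b starts the OE and mi8 summits lay 148 bases apart. The region 100858987 to 100859588 also overlaps the upper end of the Stat5b span, so it cannot be given to Stat5a alone. The lowest ratio within Stat5b was at 100826688 to 100827034, with 15 reads in OE against 33 in mi8 (0.455, 0.229 to 0.861) and 23 in HP109 against 22 in LMP8. All 16 regions of Stat5b shared by HP109 and LMP8 had more reads in HP109, and 12 of 14 shared by OE and mi8 had fewer in OE, counts near the shares of 85.1% and 77.5% over all genes. A region inside Stat5b (100825560 to 100825798) had −log10 q 11.1 in HP109, 4.91 in LMP8 and 9.83 in mi8 and no peak in OE.

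Cish encodes an SH2 protein that docks on phosphorylated cytokine receptors. Its start on chromosome 9 (107295415 to 107297494) covers the promoter printed above, and −log10 q was 112 in HP109, 36.7 in LMP8, 76.8 in OE and 90.3 in mi8. The summit held 86 reads in HP109 against 48 in LMP8, a ratio of 1.79 (1.24 to 2.61). It held 87 reads in OE against 80 in mi8, a ratio of 1.09 (0.793 to 1.49). Cish thus differed from most members in that its start had no fewer reads in OE than in mi8. The summits lay -7 bases from the annotated start in HP109, 61 in LMP8, 59 in OE and -11 in mi8. The HP109 and mi8 summits thus lay nearest to the pair of STAT palindromes. The peak caller places a summit at the highest stack of reads, and no summit here measures binding.

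The strongest Cish region in every list was 6.39 kb upstream (107289274 to 107290266). It crosses the upper coordinate of the neighbouring kinase gene Mapkapk3 and cannot be given to Cish alone. It held 90 reads in HP109 against 50 in LMP8, and 92 in OE against 87 in mi8. Further upstream, inside Mapkapk3, the order of OE and mi8 varied by region. At 107279932 to 107281193, 38 reads were in OE against 59 in mi8, at summits 498 bases apart. At 107282822 to 107283321, 28 were in OE against 43 in mi8, and at 107288680 to 107289204, 57 against 54. Also within Mapkapk3, 107286706 to 107287088 had −log10 q 19.8 in HP109, 14.5 in LMP8 and 21.8 in mi8 and no peak in OE, and 107285056 to 107285338 had 12.7 in HP109 and 10.6 in mi8 and none in LMP8 or OE. A weak region inside Cish and another after it were in OE alone, with −log10 q 4.06 and 2.63. Over the gene, 5 of 16 shared regions had more reads in OE than in mi8, beside 19.2% of shared regions near all genes. The count was the highest of the 9 genes, and Socs2 had 2 of 7.

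Socs1 encodes an inhibitor of the JAK kinases. Its start on chromosome 16 (10784297 to 10786739) had −log10 q 91.9 in HP109, 52.9 in LMP8, 91.8 in OE and 74.4 in mi8. The summit held 75 reads in HP109 against 51 in LMP8, and 83 in OE against 75 in mi8 (1.11, 0.800 to 1.53). The region 1.60 kb upstream (10787135 to 10787925), nearest to the protamine-cluster gene Tnp2, followed the start, with 46 reads in HP109 against 24 in LMP8 and 55 in OE against 49 in mi8. At the start and just upstream, OE was therefore slightly above mi8.

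Downstream of Socs1 the order was the other way. The region 2.37 kb downstream (10781241 to 10781441) held 16 reads in OE against 35 in mi8, a ratio of 0.457 (0.236 to 0.848), and 18 in HP109 against 14 in LMP8. Regions at 10771069 to 10771275 (−log10 q 21.1 in mi8), 10774692 to 10774948 (17.4) and 10776445 to 10776667 (20.1), together with 1 upstream at 10788968 to 10789154 (14.4), had no peak in OE. All 4 were present in LMP8, and 3 in HP109, which lacked the region at 10774692. That region was the only one near the 9 genes with −log10 q of at least 10 in LMP8 and no peak in HP109. Socs1 had 12 regions in HP109 against 13 in LMP8, and 9 in OE against 15 in mi8. Of its 15 mi8 regions, 6 were absent from OE, beside 39.5% over all genes. It had no region in OE that mi8 lacked, and 18% of all protein-coding genes had at least 1.

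Socs2 encodes the inhibitor best known for restraining growth hormone signalling. Its strand is not in the tables used here, so places are given by coordinate on chromosome 10. The region over the upper end of the span (95415520 to 95417780) held 66 summit reads in HP109 against 49 in LMP8, and 68 in OE against 73 in mi8. The adjoining region (95417859 to 95418193) held 65 reads in HP109 against 39 in LMP8, and 52 in OE against 53 in mi8. Both were near equal in OE and mi8. The strongest region in HP109, LMP8 and mi8 was 11.5 kb before the lower coordinate (95371805 to 95372391), with −log10 q 87.1 in HP109, 47.2 in LMP8, 53.9 in OE and 89.7 in mi8. It held 71 reads in HP109 against 50 in LMP8, and 60 in OE against 77 in mi8. A weaker neighbour (95369360 to 95369597) had −log10 q 10.7 in HP109, 13.5 in LMP8 and 12.6 in mi8 and no peak in OE. Socs2 had the highest median ratio of OE over mi8 of the 9 genes, 0.932 over 7 shared regions.

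Socs3 encodes an inhibitor of JAK kinases at receptors that signal through gp130 and G-CSF. Its start on chromosome 11 (117968233 to 117969760) had −log10 q 71.9 in HP109, 41.9 in LMP8, 78.4 in OE and 66.8 in mi8. The summit held 75 reads in HP109 against 46 in LMP8 and 78 in OE against 79 in mi8. OE and mi8 were thus alike at the start, which contains the printed promoter. Downstream they were not. At 117958133 to 117958551, 7.53 kb downstream, 22 reads were in OE against 53 in mi8, a ratio of 0.415 (0.240 to 0.694) and the lowest of the 93 shared regions. At 117961999 to 117962562, 20 reads were in OE against 47 in mi8 (0.426, 0.239 to 0.732). In HP109 and LMP8 the same regions held 35 against 26 and 41 against 28 reads. The strongest Socs3 region in LMP8 and mi8 was 2.01 kb downstream (117963202 to 117964072), with −log10 q 46.5 and 86.7. It held 49 reads in OE against 78 in mi8, and 63 in HP109 against 46 in LMP8. In HP109 the strongest was 19.1 kb upstream (117989448 to 117990845), with −log10 q 98.6. This region lies inside the span of the neighbouring gene Pgs1, so it cannot be given to Socs3 alone.

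Further regions near Socs3 were strong in some lists and absent from others. The region 117974832 to 117975168, 4.50 kb upstream, had −log10 q 23.6 in HP109, 3.80 in LMP8 and 22.8 in mi8 and no peak in OE. The region 117971095 to 117971301 had 7.29 in HP109 and 17.3 in mi8 and no peak in LMP8 or OE. The region 117965657 to 117965915, just past the end of the gene, went the other way, with 10.5 in OE, 4.11 in mi8 and no peak in HP109 or LMP8. It held 20 reads in OE against 12 in mi8, and was the only shared region of the 9 genes at least 1.5 times higher in OE, though its interval of 0.776 to 3.74 includes equality. Its neighbour 117965100 to 117965469 had −log10 q 2.80 in LMP8, 4.51 in OE and 14.3 in mi8 and no peak in HP109. Socs3 had the lowest median ratio of OE over mi8 of the 9 genes, 0.682 over 17 shared regions.

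**Figure D3:**
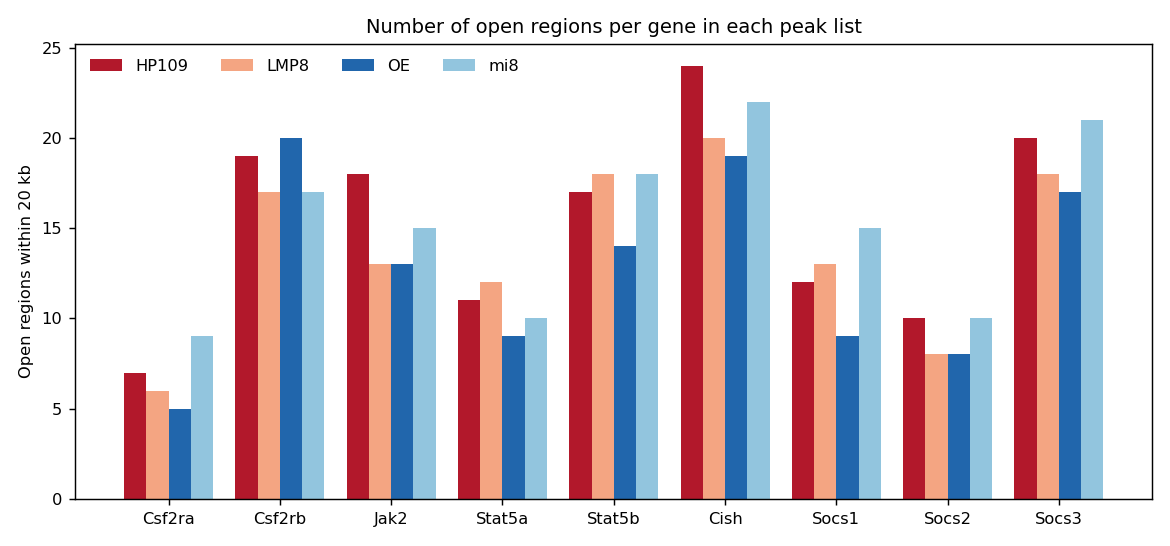
Bars give the number of open regions within 20 kb of each of the 9 genes (vertical axis) in the lists HP109, LMP8, OE and mi8. Cish had the most regions in HP109 (24), LMP8 (20) and mi8 (22), and Csf2rb was the only gene with more regions in OE (20) than in each of the other lists.

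Taking the 9 genes together, the comparison of OE with mi8 asks which open regions accompany added Pcgf6. In OE 14 of 107 regions were absent from mi8 (13.1%, 95% interval 7.34 to 21.0%), beside 4.56% of OE regions near all genes. Of these 14, 9 were at Csf2rb, 3 at Cish, 1 at Jak2 and 1 at Socs2. Without Csf2rb, an alternative chosen after seeing the data, the share was 5.75%. Most of the distance from the background thus lay at Csf2rb. In mi8 37 of 130 regions were absent from OE (28.5%, 20.9 to 37.0%), beside 39.5% over all genes. With only the strongest 111510 peaks of each list the order of the shares turned, to 20.4% of OE regions absent from mi8 against 14% of mi8 regions absent from OE. No share over all genes is given at equal list lengths, so whether the turn is particular to these genes was not tested. In OE alone stood 10 of the 158 regions (6.33%), beside 1.25% of regions near all genes; 8 were at Csf2rb and 2 at Cish.

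Presence followed the strength of the peak. None of the 40 mi8 regions with −log10 q of at least 40 was absent from OE, 4 of 31 were between 20 and 40, and 16 of 17 were below 5. Over all genes the shares in these classes were 0.342%, 9.19% and 86.7%. The 14 OE regions absent from mi8 all had −log10 q below 10: 10 of 16 below 5, where the share over all genes was 19.5%, and 4 of 22 between 5 and 10, where it was 7.82%. OE regions without a partner in mi8 were thus weak ones. In these pooled bulk lists, fewer cells with an open site and less access per cell cannot be told apart.

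**Figure D4:**
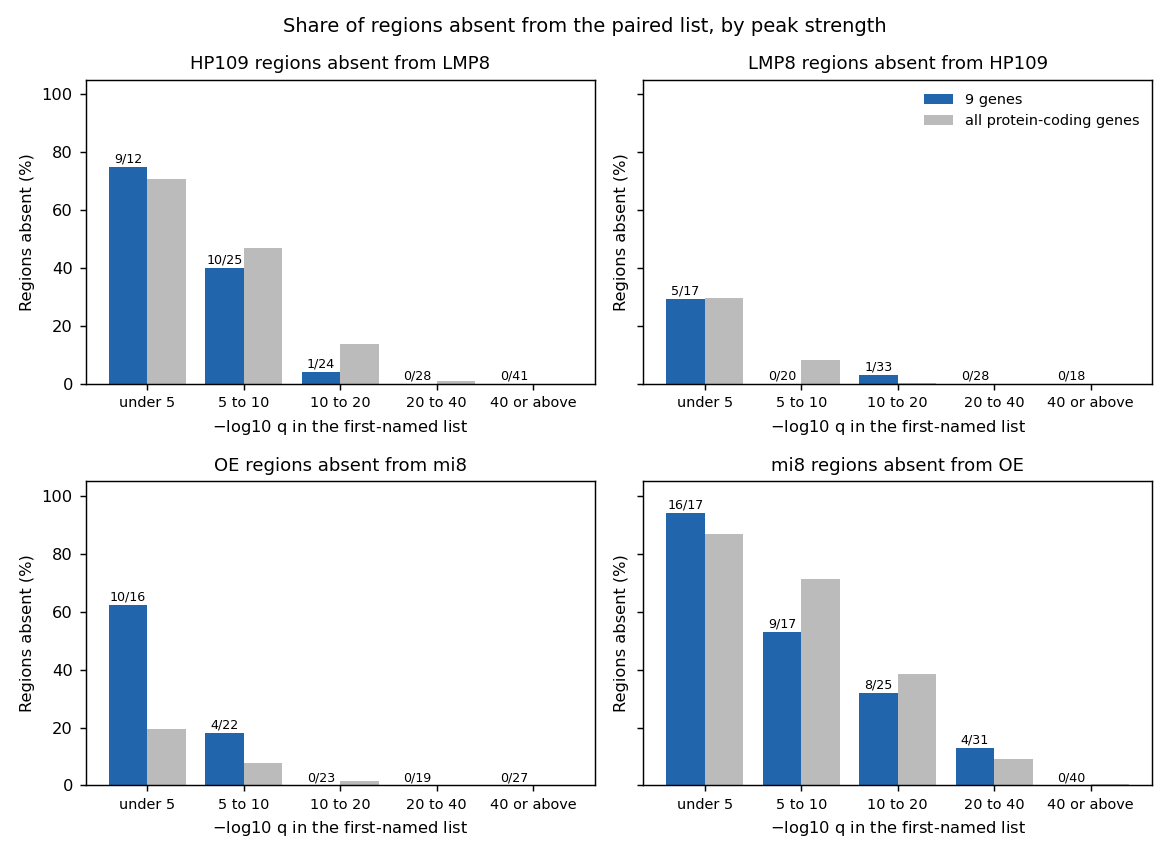
The share of regions absent from the paired list (vertical axis, percent) is drawn by −log10 q class of the first-named list, for regions near the 9 genes and near all protein-coding genes. Counts of absent over all regions stand above the bars of the 9 genes; the lower left panel shows 10 of 16 OE regions below 5 absent from mi8.

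The comparison of HP109 with LMP8 asks which regions accompany less Pcgf6. In HP109 20 of 130 regions were absent from LMP8 (15.4%, 9.66 to 22.8%), beside 24.1% over all genes. In LMP8 6 of 116 were absent from HP109 (5.17%, 1.92 to 10.9%), beside 7.68%. With only the strongest 111510 peaks of each list the order of these shares turned as well, to 8.25% of HP109 regions absent from LMP8 against 10.1% of LMP8 regions absent from HP109. Here too no share over all genes is given at equal list lengths. Of the 20, 5 were at Jak2, 4 at Cish, 3 each at Csf2rb and Socs3, and 9 had −log10 q below 5. A single HP109 region with −log10 q of at least 10 was absent from LMP8, at Cish. With full lists, both shares for the 9 genes lay below those of all genes. The 2 control vectors differed as well: in LMP8 5 of 116 regions were absent from mi8 (4.31%, beside 6.15% over all genes), and in mi8 19 of 130 were absent from LMP8 (14.6%, beside 24.5%). The last share was 7% with equal list lengths, and mi8 was the deeper of the controls (1.37 times).

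Among regions shared by OE and mi8, 13 of 93 had more summit reads in OE (14%, 7.66 to 22.7%), beside 19.2% over all genes. The median ratio of OE over mi8 was 0.786 (a log2 difference of -0.35), beside 0.793 over all genes. At least 1.5 times fewer reads were in OE at 27 regions (29.0%, beside 31.3%), and at least 1.5 times more at 1 region (1.08%, beside 2.13%). Among regions shared by HP109 and LMP8, 97 of 110 had more reads in HP109 (88.2%, 80.6 to 93.6%), beside 85.1%. The median ratio of HP109 over LMP8 was 1.37 (log2 0.45), beside 1.39. At least 1.5 times more reads were in HP109 at 30 regions (27.3%, beside 38.1%), and none had 1.5 times fewer (beside 1.08%). In both pairs the shared regions of these genes thus moved much as those of all genes did.

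The place of a region separated the ratios within OE against mi8. Of the 25 shared regions within 1 kb of an end of any protein-coding gene, 8 had more reads in OE (32.0%, beside 22.5% of such regions over all genes), with a median ratio of 0.938 (quartiles 0.869 and 1.06) beside 0.864. Of the 68 elsewhere, 5 had more reads in OE (7.35%, beside 18.4%), with a median ratio of 0.719 (0.624 and 0.851) beside 0.774. Gene-end regions thus stood nearer to equality than distal ones, at the 9 genes and over all genes. The regions also differ in strength: over all genes the median ratio of OE over mi8 was 0.681 at −log10 q 20 to 40 in mi8 and 0.815 at 40 or above, and at the 9 genes it was 0.667 over 27 regions and 0.871 over 40. Within the class of 40 or above, the 13 gene-end regions of the 9 genes had a median of 0.967 and the 27 others 0.779, beside 0.912 and 0.766 over all genes. Within 20 to 40, 4 gene-end regions had a median of 0.902 and 23 others 0.651, beside 0.710 and 0.676. The order by place thus held within both classes at the 9 genes, with few gene-end regions in the lower one. Over all genes it turned at 10 to 20, with 0.727 at gene ends and 0.760 elsewhere. It was also turned there at 5 to 10 (0.882 and 0.941) and under 5 (1.08 and 1.19). At the 9 genes it held at 10 to 20, with 0.774 over 5 gene-end regions and 0.687 over 12 others. It turned at 5 to 10, with 0.866 over 2 gene-end regions and 1 over 6 others. For HP109 against LMP8 the gene-end median was 1.47 over 24 regions, with 23 higher (95.8%, beside 88%), and the distal median 1.35 over 86, with 74 higher (86.0%, beside 84.4%).

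**Figure D5:**
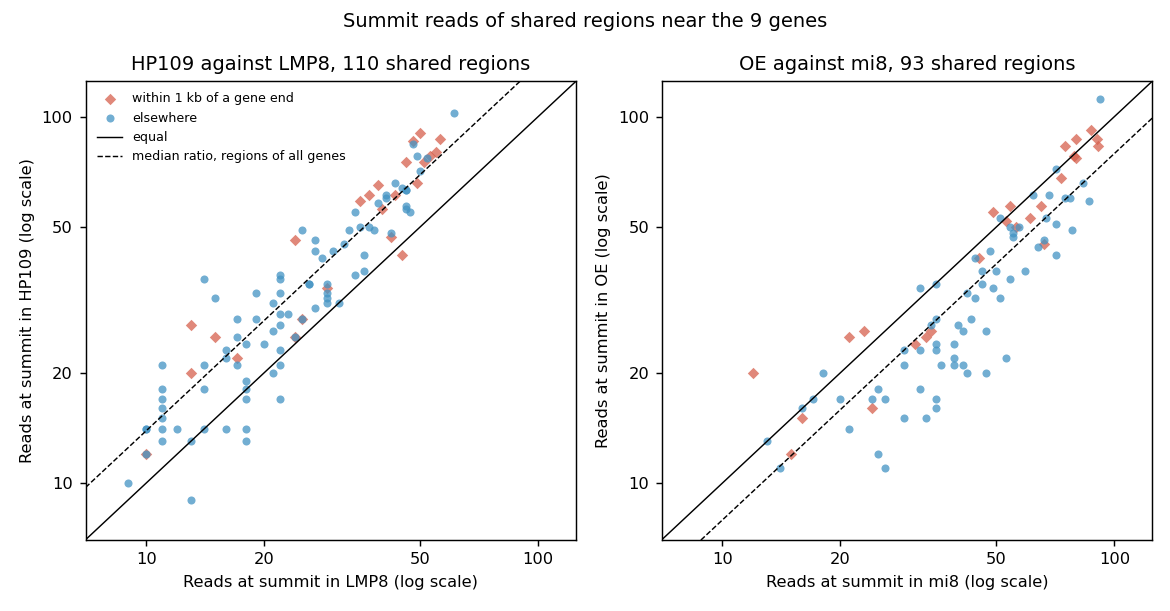
Each point is a region near the 9 genes, with its summit reads in the Pcgf6 vector (vertical axis, log scale) and in the control (horizontal axis, log scale), for HP109 against LMP8 on the left and OE against mi8 on the right. Solid lines mark equality and dashed lines the median ratio over all genes (1.39 and 0.793); diamonds, within 1 kb of a gene end, lie near equality in the right panel where reads are highest.

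Gene by gene, the median ratio of OE over mi8 was below 1 at all 9 genes. It was 0.682 at Socs3, 0.694 at Csf2rb, 0.708 at Stat5a, 0.724 at Socs1, 0.760 at Stat5b, 0.797 at Jak2, 0.855 at Csf2ra, 0.894 at Cish and 0.932 at Socs2. The median ratio of HP109 over LMP8 was above 1 at all 9, from 1.20 at Socs1 to 1.47 at Csf2ra. Over the genome-wide background, a scaling chosen after seeing the data, 12.9% of shared regions had more reads in OE than in mi8 and 93.6% more in HP109 than in LMP8. The median distance between paired summits was 18.5 bases in HP109 against LMP8 and 23 in OE against mi8, beside 21 and 19 over all genes. Paired summits lay within 50 bases of each other at 89 of 110 regions in HP109 against LMP8 (80.9%, beside 80.2%) and at 67 of 93 in OE against mi8 (72.0%, beside 82.4%). In OE against mi8 they lay 70 bases apart at the Cish start and 397 at the Socs1 start. They lay 214 apart at 100858987 to 100859588 near Stat5a and 498 at 107279932 to 107281193 near Cish. The reads compared at such regions are those of separate positions in 1 region.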

How the data were processed

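Per the submitters' processing notes, ATAC-seq reads were handled with BWA, Picard and MACS2 on mm10. Not given in the sources used here were versions, the peak threshold and any read shifting. Every deposited list is labelled downsample, but what was downsampled, and to what depth, is not given. The deposited narrowPeak lists, 1 per vector, give a score (10 times −log10 q), a fold over the local background as a ratio, a −log10 p-value and −log10 q, and a summit offset, all made by the authors' peak caller against the single input. Peaks were assigned to a gene through RefSeq spans (GRCm38.p6) with a 20 kb window, on chromosomes 1 to 19, X and Y. Peaks sharing at least 1 base, or touching, were merged. Whole-number summit reads were solved from fold and p-value, a step tested on simulated data. No column of other samples was found (0). Python 3.11.15, numpy 2.4.6, pandas 2.3.3, scipy 1.17.1 and matplotlib 3.10.9 were used.

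Named regions were drawn mainly from those at gene starts and ends, the strongest in each list, and those absent from a list with −log10 q of at least 10 in another. Regions named for a high or low ratio, and the OE-alone regions, were chosen after their values were seen. The members, lists and rules were chosen with earlier results of these data known. Intervals are exact 95% ones (Clopper-Pearson for shares, conditional binomial for ratios) and ATAC-seq reads without molecular identifiers are not independent molecules. Alternatives varied the window, the q threshold, list length, overlap, merging and scaling.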

Additional observations from a re-analysis of the deposited data

How the results depend on the processing

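Of 61 alternative values of 8 results, 54 moved by less than the counting interval and 7 moved further. With as many peaks per list as OE holds (111510), 14% of mi8 regions were absent from OE, 8.25% of HP109 regions from LMP8 and 7% of mi8 regions from LMP8. With only peaks of −log10 q of at least 5, 5.49% of OE regions were absent from mi8 and 65.1% of regions were in all 4 lists. Without Csf2rb, 5.75% of OE regions were absent from mi8. Over the genome-wide background, 93.6% of shared regions had more summit reads in HP109 than in LMP8. The last 2 alternatives were chosen after seeing the data. With equal list lengths, OE regions absent from mi8 (20.4%) outnumbered in share mi8 regions absent from OE (14%), the opposite of the order with full lists. HP109 and LMP8 turned too, with 8.25% of HP109 regions absent from LMP8 against 10.1% of LMP8 regions absent from HP109. No share over all genes is given at equal list lengths, so whether either turn is particular to the 9 genes was not tested. Windows of 5 and 50 kb gave 24.3% and 32.7% of mi8 regions absent from OE, beside 28.5%. No paired analysis was possible because both libraries of a vector were deposited as 1 list; for the same reason no library could be left out. A summit of 9 to 15 reads is near the depth at which a peak is called at all, so absence from a list does not show closed chromatin.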

Other observations

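Other genes of the pathway were described by lists chosen with earlier results known. The ligands and other receptors of the beta common family (6 genes, 49 regions) had 0 of 27 OE regions absent from mi8 and 19 of 46 mi8 regions absent from OE, where the shares over all genes were 4.56% and 39.5%. The receptors of other STAT5 cytokines (8 genes, 84 regions) had 1 of 40 and 36 of 75, and the kinases and STAT paralogs (8 genes, 176 regions) had 2 of 94 and 64 of 156. The SOCS paralogs (4 genes, 69 regions) had 0 of 37 and 21 of 58, the other negative regulators (10 genes, 230 regions) 3 of 120 and 69 of 186, and known STAT5 target genes (8 genes, 179 regions) 3 of 107 and 63 of 167. In percent, 0 to 2.80% of OE regions and 36.2 to 48.0% of mi8 regions were absent, the second range lying around the share over all genes. The strongest mi8 regions absent from OE included ones near Il2rb, the beta chain of the IL-2 receptor (−log10 q 33.4), Bcl2l1, which encodes the survival protein BCL-XL (30.9), and Stat3 (24.6). In these lists the median ratio of OE over mi8 ran from 0.667 (SOCS paralogs) to 0.824 (receptors of other STAT5 cytokines), and that of HP109 over LMP8 from 1.32 (kinases and STAT paralogs) to 1.4 (receptors of other STAT5 cytokines). Among these 44 genes, Mcl1, a survival gene, was the only one with regions in OE alone (2). Over all protein-coding genes, 374 of 21887 (1.71%) had at least 2 such regions.

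The 21 genes with at least 8 OE-alone regions, a ranking made after the values were seen, were headed by Hif1a (25), Slc7a2 (23) and Vegfa (16). Several are neighbours and share regions. Csf2rb had 20 regions in OE against 17 in mi8, Vegfa 26 in OE against 13 in mi8, and Cdkn1a, a cell cycle inhibitor, 16 in OE against 9 in mi8. By contrast, Osbpl8 had 13 OE-alone regions with 60 in OE against 116 in mi8.

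The region 21.3 kb upstream of Socs3 had −log10 q 111 at most over the lists, and the outermost one inside, 19.1 kb upstream, 98.6. Both lie inside the span of the neighbouring gene Pgs1. Beyond the window of Socs2, a region 22.3 kb before the span reached 49.5.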
